A study of Oncorhynchus mykiss with 6 samples.

Results

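miR-1, miR-206 and miR-133 are the muscle miRNAs measured here in rainbow trout dorsal skin. They were chosen by name, as every entry of the deposited miRNA table that reads mir-1, mir-206 or mir-133 after its species prefix, with all arms, letters and length variants kept. This gave 16 of 1426 entries, of which 4 belonged to miR-1, 3 to miR-206 and 9 to miR-133. The series compared skin of yellow mutant trout (YR_S) with skin of wild-type trout (WR_S) by small RNA sequencing, to look for RNA differences that bear on skin immunity. Each group had 3 libraries, each from the dorsal skin of 1 female fish aged 12 months, and the fish of both groups lived in 1 pond. The labels name no gene or allele for the yellow mutant.

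MicroRNAs guide Argonaute proteins to messenger RNAs, mainly through the seed, bases 2 to 8 from the 5' end. miR-1, miR-206 and miR-133 are made almost entirely in muscle cells of vertebrates. miR-1 genes lie beside miR-133a genes and the miR-206 gene beside a miR-133b gene, so that each pair is transcribed together. In mouse myoblasts miR-1 and miR-206 favour differentiation and miR-133 favours proliferation, and in zebrafish miR-1 and miR-133 shape much of the muscle transcriptome. In skin they are not markers of keratinocytes, pigment cells or fibroblasts.

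The sequences below, from the deposited table in DNA letters and 5' to 3', show how the abundant entries relate to each other, with the seed in capitals. The first pair is miR-1 and miR-206, and the others are the 3' arm (3p) and 5' arm (5p) of miR-133 and the entries that were at 0 in every YR_S library.
ssa-miR-1-3p: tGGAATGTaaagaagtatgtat
ssa-miR-206-3p: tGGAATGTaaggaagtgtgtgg
ssa-miR-133b-3p_L-1R+2: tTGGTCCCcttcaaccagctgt
ssa-miR-133b-3p: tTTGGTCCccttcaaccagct
gga-miR-133b_L+1R+1: tTTGGTCCccttcaaccagctat
ssa-miR-133a-3-5p_R-1: aGCTGGTAaaaaggaaccaaat
ssa-miR-133a-5p_R+1: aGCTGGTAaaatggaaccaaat
xtr-miR-133b_R+3: tTGGTCCCcttcaaccagctattt
aca-miR-206-3p_R+4: tGGAATGTaaggaagtgtgtggtat

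The 7 entries of miR-1 and miR-206 shared the seed GGAATGT, and no other entry of the table had it. Counted from the 5' end, ssa-miR-206-3p differed from ssa-miR-1-3p at 4 of 22 bases (A11G, A17G, A21G and T22G), all outside the seed. The 7 entries of the 3' arm of miR-133 had a seed in 2 registers, since 3 of them lacked the first T and 4 kept it. Their seeds were TGGTCCC and TTGGTCC. The 2 entries of the 5' arm shared the seed GCTGGTA and differed at 1 base (T12A). Members of 3' arms numbered 14 and member lengths ran from 21 to 25 bases. Reads that fitted several entries had been divided, as 47 of the 84 member values above 0 were not whole numbers (tolerance 1e-06), so the split among near-identical entries is uncertain.

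Levels are given as counts per 1000000 counts of the library after TMM scaling (CPM). TMM factors were set separately for the entries and for the sums per miRNA number. They were 0.896 and 0.952 in YR_S replicate 2, and 1.02 and 0.953 in WR_S replicate 1. The CPM of a miRNA sum can therefore lie below or above the total of its entries. The lists of other cell types and the total of all muscle miRNAs were scaled with the factors of the entries. Total counts were 1442631 in YR_S replicate 1 and between 4375641 and 5089802 in the other 5 libraries. For an entry, 3 counts thus stood for 1.95 CPM in YR_S replicate 1 and for 0.578 to 0.765 CPM elsewhere. Muscle miRNAs made up 0.517%, 0.178% and 0.182% of all counts in YR_S replicates 1, 2 and 3, against 0.268%, 0.711% and 1.28% in WR_S replicates 1, 2 and 3 (95% Wilson intervals within 0.0117 percentage points of each, for counting error only). Levels of miRNAs of other cells found in skin are given beside these as a description. With no reference tissue they do not test the tissue label. Summed miRNAs of epithelium (miR-200, miR-141, miR-429, miR-203 and miR-205) were at 23186 to 35123 CPM in YR_S and 26357 to 36677 CPM in WR_S, and those of stroma (miR-199, miR-214, miR-143 and miR-145) at 232020 to 325638 CPM in YR_S and 211487 to 266849 CPM in WR_S.

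The first question was how the level of each muscle miRNA, summed over its entries, differed between YR_S and WR_S skin. All 3 sums had lower means in YR_S, by 2.20-fold for miR-133, 2.50-fold for miR-206 and 3.63-fold for miR-1 in the fit, but the libraries of the groups overlapped in each sum and none passed the adjustment for multiple tests. miR-1 was at 905, 495 and 325 CPM in YR_S replicates 1, 2 and 3, and at 648, 1812 and 3807 CPM in WR_S replicates 1, 2 and 3. miR-206 was at 1236, 641 and 569 CPM in YR_S and at 847, 1574 and 3686 CPM in WR_S, in the same order. miR-133 was at 2649, 738 and 1018 CPM in YR_S and at 1318, 3412 and 4977 CPM in WR_S. In each of the 3 sums YR_S replicate 1 stood above WR_S replicate 1, while YR_S replicates 2 and 3 stood below every WR_S library. The WR_S libraries themselves differed by 5.88-fold for miR-1, 4.35-fold for miR-206 and 3.78-fold for miR-133, and the YR_S libraries by 2.78-, 2.17- and 3.59-fold.

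**Figure D1:**
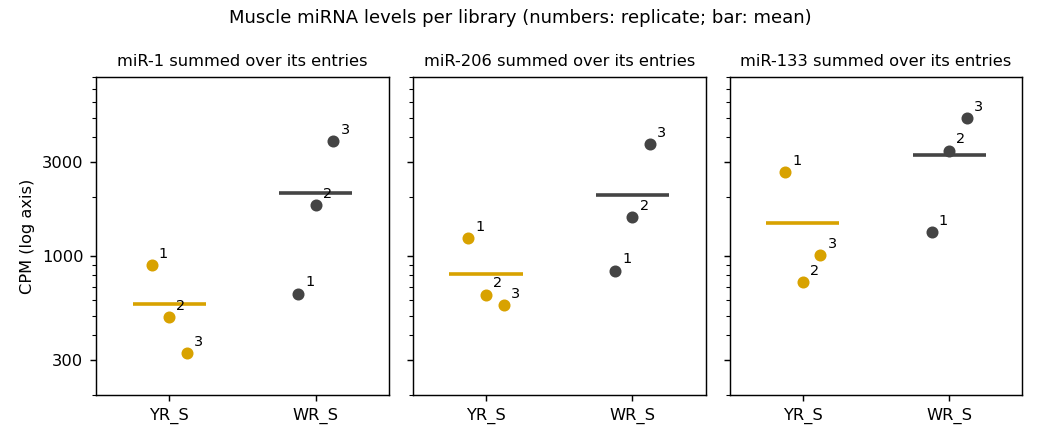
Summed level of miR-1, miR-206 and miR-133 in CPM on a log axis, with YR_S left of WR_S, 1 point per library numbered by replicate and a bar at the mean. YR_S replicate 1 lies above WR_S replicate 1 in all 3 panels, for example at 905 against 648 CPM for miR-1.

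Mean levels of miR-1 were 575 ± 298 CPM in YR_S and 2089 ± 1598 CPM in WR_S (SD, n = 3 each), with a log2 fold change of -1.86 ± 0.65 (SE; unadjusted p = 0.0235, adjusted p = 0.385 in edgeR's quasi-likelihood test). For miR-206 the YR_S mean was 816 ± 366 CPM and the WR_S mean 2036 ± 1475 CPM, a log2 fold change of -1.32 ± 0.56 (unadjusted p = 0.0494, adjusted p = 0.461). For miR-133 the YR_S mean was 1468 ± 1032 CPM and the WR_S mean 3236 ± 1836 CPM, a log2 fold change of -1.14 ± 0.61 (unadjusted p = 0.100, adjusted p = 0.627). Thus miR-1 and miR-206 were past the thresholds of the study's methods, a log2 fold change of 1 or more in size with an unadjusted p below 0.05, and miR-133 was not, where 6.33% of the 411 sums tested were called lower at these thresholds. At an adjusted p below 0.05 edgeR called 0 of the 411 sums (0%), and 44 had an unadjusted p below 0.05. In whole skin, fewer muscle cells and less miRNA per muscle cell cannot be told apart.

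These differences depended on single libraries and on the fit. Without WR_S replicate 3, the highest library in each sum, the log2 fold change was -1.10 for miR-1, -0.56 for miR-206 and -0.67 for miR-133 (unadjusted p = 0.0853, 0.261 and 0.313). Without YR_S replicate 1, the shallowest library, it was -2.35, -1.75 and -1.88 in the same order (unadjusted p = 0.0204, 0.0321 and 0.0167). Without WR_S replicate 1, the lowest WR_S library in each sum, it was -2.34, -1.74 and -1.54 (unadjusted p = 0.00181, 0.00784 and 0.0246). The adjusted p was then 0.297, 0.297 and 0.686 in edgeR. Without WR_S replicate 2 the unadjusted p was 0.0244, 0.0410 and 0.136 in the same order. Without YR_S replicate 2 or 3 the unadjusted p was 0.0866 and 0.0794 for miR-1 and 0.158 and 0.145 for miR-206. With the replicate number as a block the log2 fold change was -1.68 for miR-1 and -1.16 for miR-206 (unadjusted p = 0.0794 and 0.117), so that neither was past the thresholds. When every sum above 0 in at least 1 library was tested, miR-1 and miR-206 passed the adjustment (adjusted p = 0.00193 and 0.0206) and miR-133 did not (0.0624). In that fit 16 of 638 sums (2.51%) passed it. The log2 fold changes stayed close, at -1.90 for miR-1 and -1.35 for miR-206. The SE was smaller, at 0.39 in place of 0.65 for miR-1 and 0.36 in place of 0.56 for miR-206. The cause of the change was not tested. Over its 16 alternatives the miR-1 sum stayed past the study's thresholds in 12, the miR-206 sum in 8 and the miR-133 sum was past them in 4.

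The 16 entries were then compared one by one. All 16 had a negative fitted log2 fold change, against 571 of all 1085 entries tested (52.6%). Of the 16, 2 were at 0 in every YR_S library and could only be negative, as held for 29 of the 1085. The 14 members with counts in YR_S lay between -0.82 and -2.69. The lowest value of the 16, -6.91, was that of aca-miR-206-3p_R+4, at 0 in YR_S. The median of the 16 was -1.57, beside -0.03 over all entries tested. It was -1.33 when entries at 0 in YR_S were set at their bound from a floor of 3 counts. A shared direction was also seen in the epithelial list, where 28 of 31 tested entries were lower (median -0.31). In the stromal list 12 of 33 were (median 0.05). At the thresholds of the study's methods 6 of the 16 were lower in YR_S, where 6.45% of all entries tested were. Of these 6, aca-miR-206-3p_R+4 and xtr-miR-133b_R+3 were at 0 in every YR_S library, entered the test only through WR_S and could only be lower. All 29 entries of the table tested in this state were past the thresholds. Among entries with counts in YR_S, 4 of 14 members were past them, 2 of miR-1, 1 of miR-206 and 1 of miR-133, beside 41 of 1056 of all such entries (3.88%). Entries of 1 miRNA are length variants that share reads, so the 16 are not independent measurements. At an adjusted p below 0.05 edgeR called 0 of the 16 and 0 of all entries tested (0%), while 6 members and 113 entries had an unadjusted p below 0.05. DESeq2 called 1 of the 16, aca-miR-206-3p_R+4, where it called 3.69% of the 976 entries with an adjusted p.

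**Figure D2:**
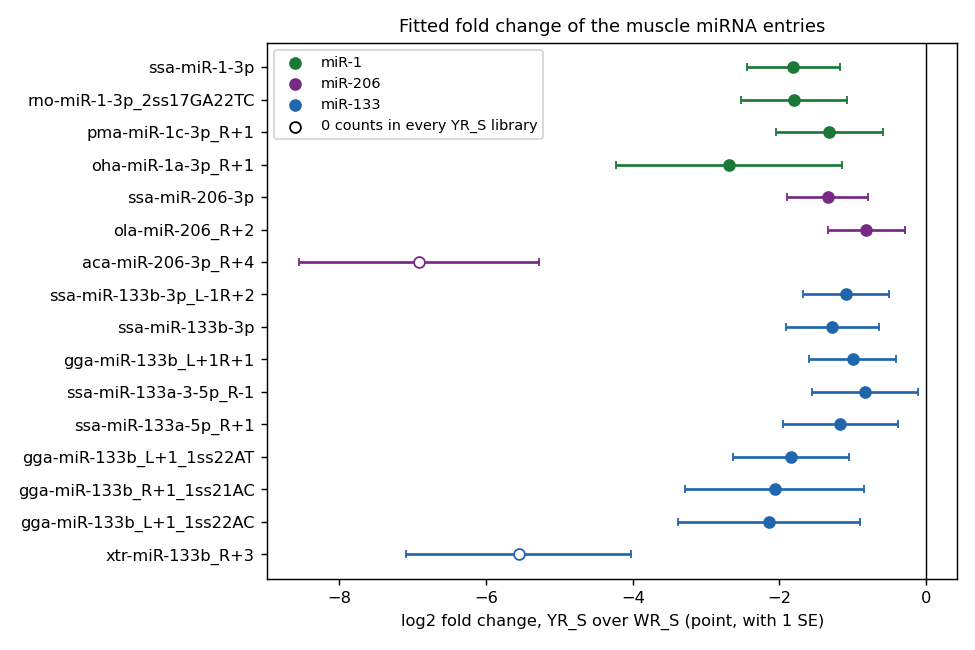
Fitted log2 fold change of each of the 16 entries, YR_S over WR_S, with 1 SE on each side, coloured by miRNA; open points are the 2 entries with 0 counts in every YR_S library, whose fitted value depends on the prior count. All 16 points lie below 0, where the 2 open points could only lie, and ola-miR-206_R+2 lies nearest to it at -0.82.

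ssa-miR-1-3p, which held 93.0% to 94.5% of the miR-1 counts in every library, was at 854, 494 and 308 CPM in YR_S replicates 1, 2 and 3, and at 572, 1686 and 3540 CPM in WR_S replicates 1, 2 and 3 (log2 fold change -1.81 ± 0.63 SE, unadjusted p = 0.0213, adjusted p = 0.313 in edgeR). The other 3 miR-1 entries carried a C at base 22 (T22C against ssa-miR-1-3p). The most abundant of them, rno-miR-1-3p_2ss17GA22TC, was at 57.3, 30.0 and 16.0 CPM in YR_S and at 31.4, 102 and 222 CPM in WR_S (-1.80 ± 0.72, unadjusted p = 0.0367, adjusted p = 0.418). Its libraries had the same order as those of ssa-miR-1-3p, and the form with C was 5.83% to 6.95% of miR-1 in YR_S and 5.54% to 6.50% in WR_S. For the scarce pma-miR-1c-3p_R+1 the YR_S mean was 2.63 ± 1.12 CPM and the WR_S mean 6.26 ± 4.46 CPM (SD, n = 3 each). For oha-miR-1a-3p_R+1 the YR_S mean was 1.27 ± 1.30 CPM and the WR_S mean 7.14 ± 6.57 CPM, with 0 counts in YR_S replicate 2 and in WR_S replicate 1. Neither of the scarce forms was past the thresholds (unadjusted p = 0.107 and 0.119).

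ssa-miR-206-3p was at 1011, 568 and 492 CPM in YR_S replicates 1, 2 and 3, and at 669, 1314 and 3263 CPM in WR_S replicates 1, 2 and 3 (log2 fold change -1.34 ± 0.56 SE, unadjusted p = 0.0421, adjusted p = 0.452 in edgeR). ola-miR-206_R+2, which has 1 more base, was at 242, 113 and 80.5 CPM in YR_S and at 120, 249 and 396 CPM in WR_S (-0.82 ± 0.53, unadjusted p = 0.159, adjusted p = 0.722). As for miR-1, YR_S replicate 1 lay between WR_S replicates 1 and 2 in ssa-miR-206-3p, and the groups overlapped in both entries. aca-miR-206-3p_R+4, with 3 more bases than ssa-miR-206-3p, had 0 counts in all YR_S libraries and 5, 15 and 33 counts in WR_S replicates 1, 2 and 3. Setting YR_S at a floor of 3 counts in each library gave a bound of 3.24-fold lower in YR_S, and of 1.81-fold without WR_S replicate 3. This bound leaves out counting error and the spread between fish. The floor in YR_S replicate 1, 1.95 CPM, lay above the value of aca-miR-206-3p_R+4 in WR_S replicate 1 (0.963 CPM). The longer forms together were 14.1% to 19.3% of miR-206 in YR_S and 11.0% to 16.1% in WR_S.

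The most abundant miR-133 entry, ssa-miR-133b-3p_L-1R+2, was at 2358, 683 and 910 CPM in YR_S replicates 1, 2 and 3, and at 1080, 3024 and 4303 CPM in WR_S replicates 1, 2 and 3 (log2 fold change -1.09 ± 0.59 SE, unadjusted p = 0.100, adjusted p = 0.607 in edgeR). Here YR_S replicate 1 stood above 1 WR_S library and below the other two. ssa-miR-133b-3p, with the first T and without the last 2 bases, was at 123, 34.6 and 37.8 CPM in YR_S and at 66.0, 143 and 261 CPM in WR_S (unadjusted p = 0.0796). gga-miR-133b_L+1R+1 was at 104, 27.7 and 39.3 CPM in YR_S and at 51.1, 115 and 171 CPM in WR_S (unadjusted p = 0.129). Neither was past the thresholds, and their order of libraries was that of the most abundant entry.

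The form of miR-133 3p without the first T, whose seed is shifted by 1 base, held 90.8% to 91.9% of the 3p counts in YR_S and 89.5% to 91.6% in WR_S. The groups overlapped in this share, and their means differed by 0.887 percentage points. In mammals miR-133a and miR-133b differ in the base that follows the shared end AGCT, which is G in miR-133a and A in miR-133b. By this base the counts were mostly of the G form, at 90.8% to 91.8% of 3p counts in YR_S and 89.3% to 91.5% in WR_S, although the table names its sequence for miR-133b. The G form was the entry ssa-miR-133b-3p_L-1R+2 alone, which also held nearly all counts of the form without the first T. Both shares thus largely describe the same entry, and no entry had both the first T and the G. The A form was at 3.69% to 3.99% in YR_S and 3.50% to 4.36% in WR_S. A small form with T at this base, gga-miR-133b_L+1_1ss22AT, was at 0.205% to 0.451% in YR_S and 0.540% to 0.669% in WR_S. It was the one end of the 5 whose shares did not overlap, with 95% Wilson intervals of up to 0.213 percentage points on each side. Its YR_S shares rested on 18, 6 and 11 counts in replicates 1, 2 and 3. The interval of YR_S replicate 1, 0.286% to 0.712%, covered all WR_S shares. Those of YR_S replicates 2 and 3, 0.0940% to 0.447% and 0.149% to 0.478%, lay below all WR_S shares. Both still overlapped the interval of WR_S replicate 2, which began at 0.437%. Whether this share differed between the groups was not tested.

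gga-miR-133b_L+1_1ss22AT had 12.0, 1.40 and 2.65 CPM in YR_S replicates 1, 2 and 3, and 8.19, 17.7 and 25.7 CPM in WR_S replicates 1, 2 and 3 (log2 fold change -1.85 ± 0.79 SE, unadjusted p = 0.0473, adjusted p = 0.465 in edgeR). It was past the thresholds although its CPM overlapped between the groups. xtr-miR-133b_R+3 had 0 counts in all YR_S libraries and 9, 4 and 8 counts in WR_S replicates 1, 2 and 3. Setting YR_S at a floor of 3 counts in each library gave a bound of 1.24-fold lower in YR_S for xtr-miR-133b_R+3. This bound leaves out counting error and the spread between fish, and no difference is read from it. Without WR_S replicate 1 this bound was 1.11-fold. The floor in YR_S replicate 1, 1.95 CPM, lay above its 3 WR_S values (1.73, 0.850 and 1.69 CPM), so the bound does not hold for that library. xtr-miR-133b_R+3 and aca-miR-206-3p_R+4 entered the test only through WR_S, so that both had to differ in order to be tested. gga-miR-133b_L+1_1ss22AC held 3 counts in YR_S, all in replicate 3, and 20 in WR_S. The ratio of its pooled counts, scaled by library size, was 0.228. Its 95% interval of 0.0435 to 0.770 covers counting error only and not the spread between fish. Between fish the log2 fold change was -2.14 ± 1.24 SE (unadjusted p = 0.122, adjusted p = 0.658 in edgeR). gga-miR-133b_R+1_1ss21AC held 0, 0 and 5 counts in YR_S and 7.5, 8.5 and 14.5 counts in WR_S.

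The 5' arm of miR-133 comes from the other strand of the same hairpins and made up 3.11% to 4.72% of miR-133 counts in YR_S and 1.75% to 3.66% in WR_S. ssa-miR-133a-3-5p_R-1 was at 72.7, 29.0 and 28.2 CPM in YR_S replicates 1, 2 and 3, and at 16.6, 69.9 and 144 CPM in WR_S replicates 1, 2 and 3 (log2 fold change -0.84 ± 0.72 SE, unadjusted p = 0.279). ssa-miR-133a-5p_R+1 was at 16.7, 8.08 and 3.62 CPM in YR_S and at 4.88, 20.4 and 36.9 CPM in WR_S (-1.17 ± 0.79, unadjusted p = 0.175). All YR_S libraries of the first entry stood above WR_S replicate 1.

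**Figure D3:**
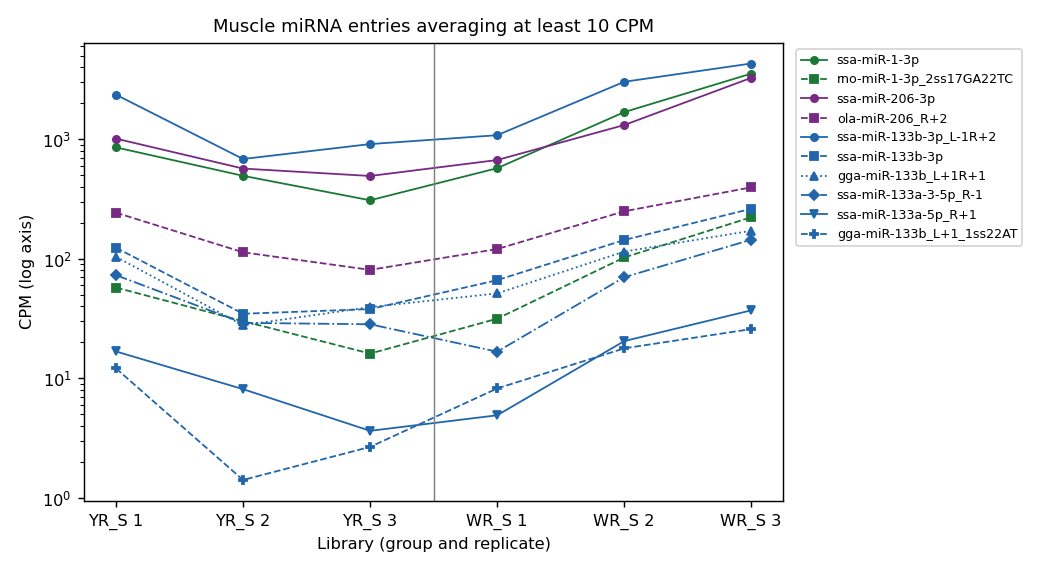
CPM on a log axis of the 10 entries that averaged at least 10 CPM, in each library, coloured by miRNA; lines only join the values of 1 entry. Each of the 10 has its highest value in WR_S replicate 3 and its highest YR_S value in replicate 1.

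The muscle miRNAs had much the same order of libraries. WR_S replicate 3 was the highest library for 15 of the 16 entries, the exception being xtr-miR-133b_R+3, and YR_S replicate 1 was above WR_S replicate 1 in 12 of the 16. Between log2(CPM + 1) of the sums, Pearson's r over the 6 libraries was 0.98 for miR-1 and miR-206, 0.93 for miR-1 and miR-133 and 0.94 for miR-206 and miR-133. Without the 2 libraries farthest from the median these were 0.96, 0.77 and 0.99. The values are descriptions, since the points share libraries and depth. In 4 of the 16 entries every YR_S library was below every WR_S library, where 9.03% of all entries tested were. All 4 had counts in 0 or 1 YR_S library and so passed the filter on low values mainly through WR_S, which leaves little room for overlap, as held for 52 of the 98 such entries of the table. Nothing is read from this count. These 4 averaged at most 1.86 CPM over the 6 libraries, and the 12 more abundant entries overlapped between the groups.

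The shares of miR-1, miR-206 and miR-133 in the muscle counts overlapped between the groups. miR-133 was 55.3%, 39.4% and 53.2% of the counts in YR_S replicates 1, 2 and 3, and 46.9%, 50.2% and 39.9% in WR_S. miR-1 was 18.9%, 26.4% and 17% in YR_S and 23.0%, 26.7% and 30.5% in WR_S, and miR-206 was 25.8%, 34.2% and 29.8% in YR_S and 30.1%, 23.2% and 29.6% in WR_S. Wilson intervals were within 1.13 percentage points of each share, so that some libraries of 1 group differed by more than the counting error. Others did not, as the miR-133 intervals of YR_S replicates 1 and 3 overlapped (54.17% to 56.43% and 52.13% to 54.32%). YR_S replicate 1 and YR_S replicate 3 had nearly the same share of miR-133 although their miR-133 levels were 2649 and 1018 CPM. The ratio of miR-1 to miR-206 was 0.732, 0.773 and 0.571 in YR_S and 0.765, 1.15 and 1.03 in WR_S, with WR_S replicate 1 inside the range of YR_S.

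**Figure D4:**
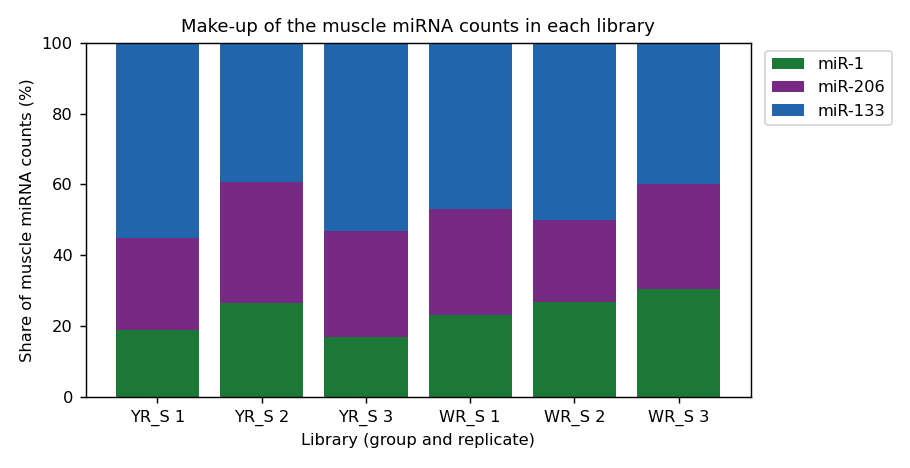
Share of miR-1, miR-206 and miR-133 in the muscle miRNA counts of each library, in percent, with the 3 YR_S libraries left of the 3 WR_S libraries. miR-133 takes 39.4% to 55.3% in YR_S and 39.9% to 50.2% in WR_S.

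Other muscle miRNAs came from a list of miR-208, miR-499, miR-486 and miR-378, of which miR-499 and miR-378 had entries. Its 4 tested entries were all of miR-499, so they describe 1 family. Of these, 3 were lower and 1 was higher in YR_S at the thresholds of the study's methods, and none passed the adjustment. The share of all entries called higher is not given here. Of the 3 lower entries 2 were scarce miR-499 forms at 0 in every YR_S library, which entered the test only through WR_S and could only be lower, so that ssa-miR-499b-5p_R-1 was the 1 lower entry with counts in YR_S, beside the 3.88% of all such entries given above. ssa-miR-499b-5p_R-1, of a family encoded in myosin heavy chain genes, was at 57.6, 93.6 and 46.2 CPM in YR_S replicates 1, 2 and 3, and at 148, 183 and 201 CPM in WR_S replicates 1, 2 and 3. The abundant forms of miR-1, miR-206 and miR-133 overlapped between the groups. In contrast, every YR_S library of ssa-miR-499b-5p_R-1 was below every WR_S library, as in 9.03% of all entries tested. Its WR_S libraries varied little, and its log2 fold change was -1.43 ± 0.33 SE (adjusted p = 0.233 in edgeR's quasi-likelihood test). ssa-miR-499a-5p ran the other way, at 36.5, 113 and 37.9 CPM in YR_S and 29.3, 18.3 and 16.5 CPM in WR_S (1.55 ± 0.51, adjusted p = 0.273). The miR-499 sum was 92.8, 195 and 83.6 CPM in YR_S and 192, 204 and 220 CPM in WR_S, with YR_S replicate 2 and not replicate 1 as the highest YR_S library. Whether miR-499 and the other muscle miRNAs differed in their response was not tested.

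Lists of other cell types were read beside these values. The liver miRNA miR-122 summed to 5.86, 51.3 and 13.3 CPM in YR_S replicates 1, 2 and 3, and to 18.9, 19.5 and 3405 CPM in WR_S replicates 1, 2 and 3. WR_S replicate 3, the highest library for the muscle miRNAs, was thus also the one with high miR-122, and its part in the muscle result was not tested beyond the values without this library given above. The red cell miRNAs miR-451 and miR-144 summed to 106 to 272 CPM in YR_S and 33.5 to 309 CPM in WR_S, again with the highest value in WR_S replicate 3 and the lowest in WR_S replicate 1. The epithelial sum was highest in YR_S replicate 1 among the YR_S libraries, as the muscle sum was. So were the leukocyte sum (1550 CPM) and the neuroendocrine and neural sum (960 CPM). Among the WR_S libraries the epithelial sum was lowest in replicate 3, where the muscle sum was highest. It was at 33073, 36677 and 26357 CPM in WR_S replicates 1, 2 and 3. miR-126 of endothelium (5106 to 10206 CPM in YR_S, 6863 to 7432 CPM in WR_S) and the leukocyte miRNAs (969 to 1550 CPM in YR_S, 1069 to 1672 CPM in WR_S) overlapped between the groups. The neuroendocrine and neural list (miR-375, miR-7, miR-124 and miR-9) was at 598 to 960 CPM in YR_S and 1079 to 1215 CPM in WR_S, without overlap. Its members did not all run 1 way. In the fit of sums miR-375, miR-7 and miR-9 had log2 fold changes of -0.75, -0.54 and -0.39, and miR-124 of 0.77. Their unadjusted p in edgeR was 0.113, 0.126, 0.434 and 0.233 in the same order. The share of sums without overlap is not given here.

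**Figure D5:**
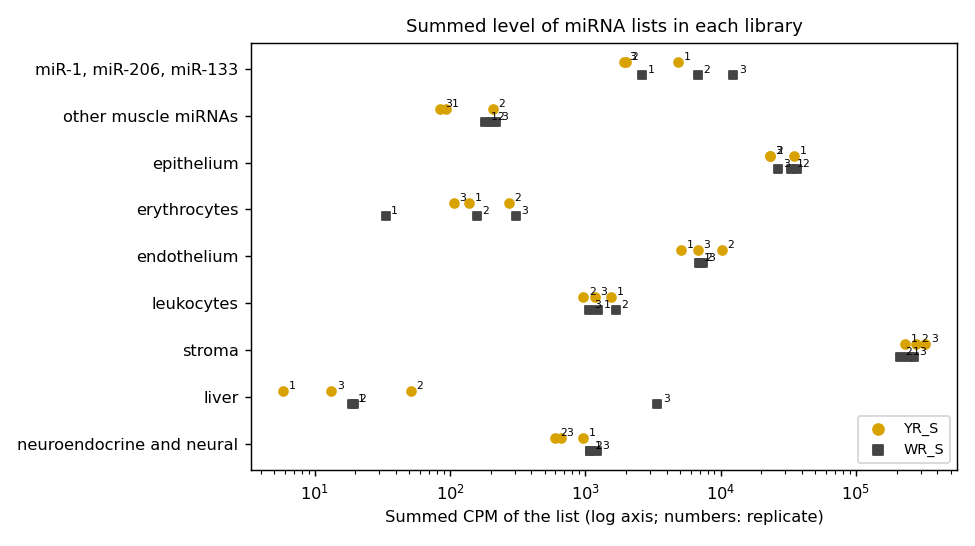
Summed CPM on a log axis of the muscle miRNAs and of 8 lists of other miRNAs in each library, circles for YR_S above squares for WR_S, numbered by replicate. All are scaled with the TMM factors of the entries. The WR_S libraries spread from 2627 to 12399 CPM for miR-1, miR-206 and miR-133 together, and miR-122 stands at 3405 CPM in WR_S replicate 3 alone.

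Among 483 other tested entries of at least 10 CPM, those most like the summed muscle miRNAs across the 6 libraries were named by Pearson's r of log2(CPM + 1), as a description. They were mmu-mir-6240-p3_1ss17GT (0.93), ssa-miR-30e-3-3p (0.88), mmu-mir-6240-p3_1ss2TG (0.87), ssa-miR-106a-3p_R-1 (0.83) and mmu-mir-6240-p3_1ss16GT (0.83). Their fitted log2 fold changes lay between -0.74 and -0.11. mmu-mir-6240-p3_1ss17GT was at 71.9, 43.5 and 45.1 CPM in YR_S replicates 1, 2 and 3, and at 62.4, 82.2 and 86.2 CPM in WR_S replicates 1, 2 and 3. Without the 2 libraries farthest from the median of the muscle sum its r was 0.92, and that of ssa-miR-30e-3-3p was 0.59.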

How the data were processed

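Small RNA libraries of 6 dorsal skins (TruSeq kit, Illumina HiSeq, single-end) were filtered by the authors with ACGT101-miR and matched to miRBase release 22. The authors deposited an estimated count per miRNA entry and library, with shared reads divided, and a normalized signal that equals the count times 1 factor per library. Their 3 columns of fold change, log2 ratio and p-value per entry, deposited beside these, hold the study's own comparison and were not used. 1 line named no miRNA and held no counts. How shared reads were divided is not given in the sources used here.

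Estimated counts were rounded and entries above 0 in at least 3 of 6 libraries were tested with edgeR's quasi-likelihood test (edgeR 4.0.16, R 4.3.3), TMM scaling, two-sided, with Benjamini-Hochberg adjustment over all 1085 entries. Counts summed per miRNA number were tested likewise over 411 sums, with TMM factors of their own. The SE is the log2 fold change divided by the root of F. Both fits were tested on simulated data. The study's methods name DESeq2 for this comparison. DESeq2 1.42.0, limma 3.58.1, other scalings and filters, entries with identical counts taken once, identical sequences summed, and leaving out each library were alternatives. Summed CPM of the lists, shares, ratios and r were not tested. Group and replicate came from the sample titles; p-values measure the spread between 3 fish per group. Deviations of same-numbered libraries correlated at 0.38, 0.11 and 0.32 over sums, and at 0.24, -0.03 and 0.34 over entries. The labels pair no fish across the groups. Over sums YR_S replicate 2 correlated nearly as well with WR_S replicate 3 (0.10) as with WR_S replicate 2 (0.11). The block is therefore given as an alternative only.

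Members and lists were chosen with earlier results of these data known. Named were the 5 most abundant entries of each miRNA, those past the study's thresholds and those at 0 in a group; the scarce gga-miR-133b_R+1_1ss21AC and gga-miR-133b_L+1_1ss22AC lie outside that rule and were added after their values were seen.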

Additional observations from a re-analysis of the deposited data

How the results depend on the processing

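The count of muscle miRNA entries lower in YR_S at the thresholds of the study's methods was 6, beside 6.45% of all entries tested. Of these 6, 2 were at 0 in every YR_S library. For the other settings the share over all entries is not given here, so their counts only describe the members. The count was 2 with a minimum of 10 CPM on the mean, which left 10 of the 16, and 3 with the replicate number as a block in the entry fit. Leaving out single libraries gave 1 to 12, with 12, 3 and 1 without WR_S replicates 1, 2 and 3 and 10, 2 and 4 without YR_S replicates 1, 2 and 3. Without a WR_S library only 14 entries could be tested. The 2 called without YR_S replicate 2 were aca-miR-206-3p_R+4 and xtr-miR-133b_R+3, at 0 in every YR_S library. Without YR_S replicate 3 the 4 were these 2 with gga-miR-133b_R+1_1ss21AC and gga-miR-133b_L+1_1ss22AC, whose YR_S counts all lay in replicate 3. Entries at 0 in the remaining YR_S libraries could only be lower, so nothing is read from these 2 counts. The other alternatives gave 4 to 8. At an adjusted p below 0.05 DESeq2 called 1 entry and every other alternative 0. The entry called was aca-miR-206-3p_R+4, which was at 0 in every YR_S library and could only be lower. Over its 16 alternatives each sum kept a negative log2 fold change. Leaving out single libraries gave -2.35 to -1.10 for miR-1, -1.75 to -0.56 for miR-206 and -1.88 to -0.67 for miR-133, and the other settings gave -2.06 to -1.67, -1.49 to -1.16 and -1.38 to -1.10 in the same order. With the replicate block the miR-133 sum was at -1.26. When sums above 0 in at least 1 library were tested, miR-1 was at -1.90 and miR-206 at -1.35 and both passed the adjustment, and the cause was not tested. Of 242 alternative values for the 14 entries named by the rule 0 changed direction. The values of aca-miR-206-3p_R+4 and xtr-miR-133b_R+3 are among them and could not have done so, with 0 counts in every YR_S library. Depth limited the scarce entries most in YR_S replicate 1, where 3 counts stood for 1.95 CPM.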
